A study of Arabidopsis thaliana with 6 samples.

Results

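Transcript levels of 8 genes of the histone H3 lysine 9 (H3K9) methylation system of Arabidopsis thaliana were compared between wild-type leaves and leaves of the quadruple mutant ddcc. The genes were chosen by locus: KYP (also SUVH4, AT5G13960), SUVH5 (AT2G35160), SUVH6 (AT2G22740), SUVH1 (AT5G04940), SUVH3 (AT1G73100), IBM1 (AT3G07610), IBM2 (AT5G11470) and EDM2 (AT5G55390). They are 8 of the 31335 gene entries in the count table, and all 8 passed the filter on low counts. All plants were accession Col-0, 28 days old and grown on soil at 21 °C with 16 h of light per day. All had 48 h of stratification at 4 °C. The name ddcc stands for mutations of 4 genes, DRM1, DRM2, CMT3 and CMT2, which encode the DNA methyltransferases that act outside CG dinucleotides, and the wild type carries none of these. Each genotype had 3 libraries of polyadenylated RNA. The labels name no allele, plant line, plant pool or batch, so p-values measure only the spread between these libraries, which may be technical.

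H3K9 methylation and DNA methylation outside CG sites maintain each other in plants. KYP, SUVH5 and SUVH6 bind methylated DNA through their SRA domains and methylate H3K9, and CMT3 and CMT2 bind methylated H3K9 and methylate DNA in CHG and CHH contexts, where H is any base but G. IBM1 is a JmjC-domain histone demethylase that removes H3K9 methylation from gene bodies and so keeps CHG methylation out of active genes. A long intron of IBM1 itself carries DNA methylation, and IBM2 and EDM2 are needed for the full-length transcript to be made across it. SUVH1 and SUVH3 belong to the same family as KYP but are known as readers of DNA methylation that favour transcription of nearby genes.

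The 6 libraries held 15188586 to 18809306 counts. DRM2, CMT3 and CMT2 were lower in ddcc, with log2 fold changes of −1.14, −1.69 and −0.46, and DRM1 had at most 1 count in any library and gave no check of the labels. Of 3 leaf mesophyll markers, summed levels ran from 51778 to 55863 CPM (counts scaled to library size) in wild type and from 49232 to 51116 CPM in ddcc. The 4 flower organ markers summed to at most 0.700 CPM in any library. Of the 3 root markers, IRT1 and a root peroxidase gene were at 0 in all libraries. CASP1, the remaining root marker, was above 0 in every library. Its level ran from 0.175 to 0.591 CPM for wild-type leaves against 0.0572 to 0.313 CPM for the mutant. RBCS1A and RCA, both leaf markers, were lower in ddcc (log2 fold change −0.19 for both, with adjusted p of 0.0342 and 0.0144 in edgeR). The other leaf marker, CAB1, was not called (log2 fold change −0.05, adjusted p 0.530 in edgeR), and its genotypes overlapped in CPM. The part of leaf composition in the results was not tested, and in whole leaves fewer cells of a type and less RNA per cell cannot be told apart.

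The long intron of IBM1 is shown first, since IBM2 and EDM2 are known to act on it, and no value here ties the level of IBM1 to it. IBM1 lies on chromosome 3 from 2425884 to 2433113 on the plus strand (TAIR10.1). Its longest intron is intron 7, from 2429125 to 2431098, with 1974 bases, longer than the longest intron of 99.5% of the 22971 genes with an annotated intron. The annotation gives 3 transcripts. In 1 of them, the short form, the seventh exon runs 1079 bases into the intron and ends at 2430203, so that the 9 exons after intron 7 are missing. The other 2 cross the intron, and one of them has a small exon inside it. Of 4664 exon bases, 51.7% are shared by both forms, 21.1% belong to the short form only and 27.1% to the full-length forms only. The deposited counts are 1 number per gene, so the forms could not be separated, and the values below are their sum. The intron holds 101 cytosines in the CHG context and 88 in the CG context, counting both strands. The 200 bases with the most CHG cytosines (22) among the 895 that no annotated exon covers lie at chr3:2430305-2430504 and are shown because CHG cytosines are what CMT3 methylates. Capitals mark each CAG, CTG, CCG or CGG triplet, which is a CHG site on one strand or both.
IBM1 intron 7: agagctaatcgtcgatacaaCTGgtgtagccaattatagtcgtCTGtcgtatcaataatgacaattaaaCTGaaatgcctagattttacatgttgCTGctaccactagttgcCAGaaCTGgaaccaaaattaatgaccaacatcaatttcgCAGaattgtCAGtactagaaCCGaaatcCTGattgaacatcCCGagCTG
The window holds 12 such triplets. At 51.2 CHG cytosines per kb the whole intron was denser than 68.1% of the 11288 longest introns of at least 300 bases, whose median was 42.9 per kb. No methylation was measured in the data used here.

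**Figure D1:**
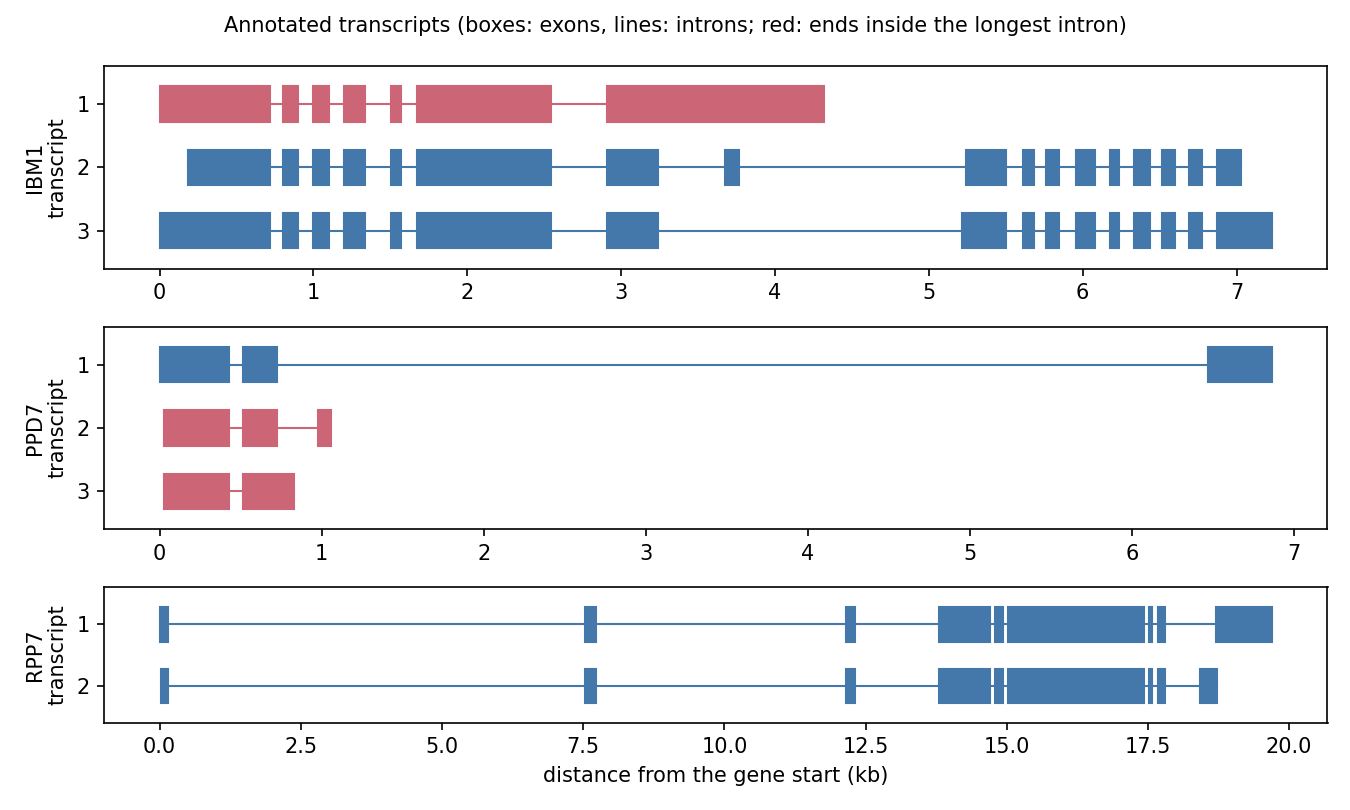
Annotated transcripts of IBM1, PPD7 and RPP7 against distance from the gene start in kb, with exons as boxes and introns as lines. Transcripts that end inside the longest intron of the gene are red, 1 of 3 for IBM1, 2 of 3 for PPD7 and 0 of 2 for RPP7.

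IBM1 fell in ddcc, and it was the only member that passed the test. Replicates 1 to 3 of the wild type had 282, 264 and 290 counts, or 16.4, 16.3 and 19.1 CPM, and those of ddcc 268, 244 and 267 counts, or 14.0, 14.0 and 14.3 CPM. All ddcc libraries lay below all wild-type libraries, and wild-type replicate 3 was the highest. The ddcc values lay closer together, with an SD of 1.32% of their mean against 9.03% in wild type. The ddcc SD is less than counting noise alone would give at such counts, so it does not measure the true spread. The difference in spread was not tested. The mean went from 17.3 ± 1.56 to 14.1 ± 0.186 CPM (SD, n = 3 each), a log2 fold change of −0.29 (standard error 0.08, Benjamini-Hochberg adjusted p 0.0232 by the quasi-likelihood test of edgeR). IBM1 thus fell by 18.4%, with a 95% interval of −28.1% to −7.29%. The call was lost with DESeq2 (adjusted p 0.121) and in edgeR without wild-type replicate 3 (log2 fold change −0.22, adjusted p 0.0958), ddcc replicate 1 (−0.29, adjusted p 0.0605) or ddcc replicate 3 (−0.30, adjusted p 0.0564). Over all 15 alternatives the log2 fold change ran from −0.33 to −0.22.

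Most members showed no called difference. Of the 8 members 1 (12.5%) passed an adjusted p under 0.05, it was lower, and none was higher, while 27.4% of the 18126 tested genes passed, 14.7% higher and 12.8% lower. The difference between these shares was not tested. The median log2 fold change was −0.01 over the members and −0.01 over all tested genes, and the median size of change was 0.10 against 0.18. The CPM values of the genotypes did not overlap for 2 members, IBM1 and SUVH1, against 43.0% of tested genes.

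**Figure D2:**
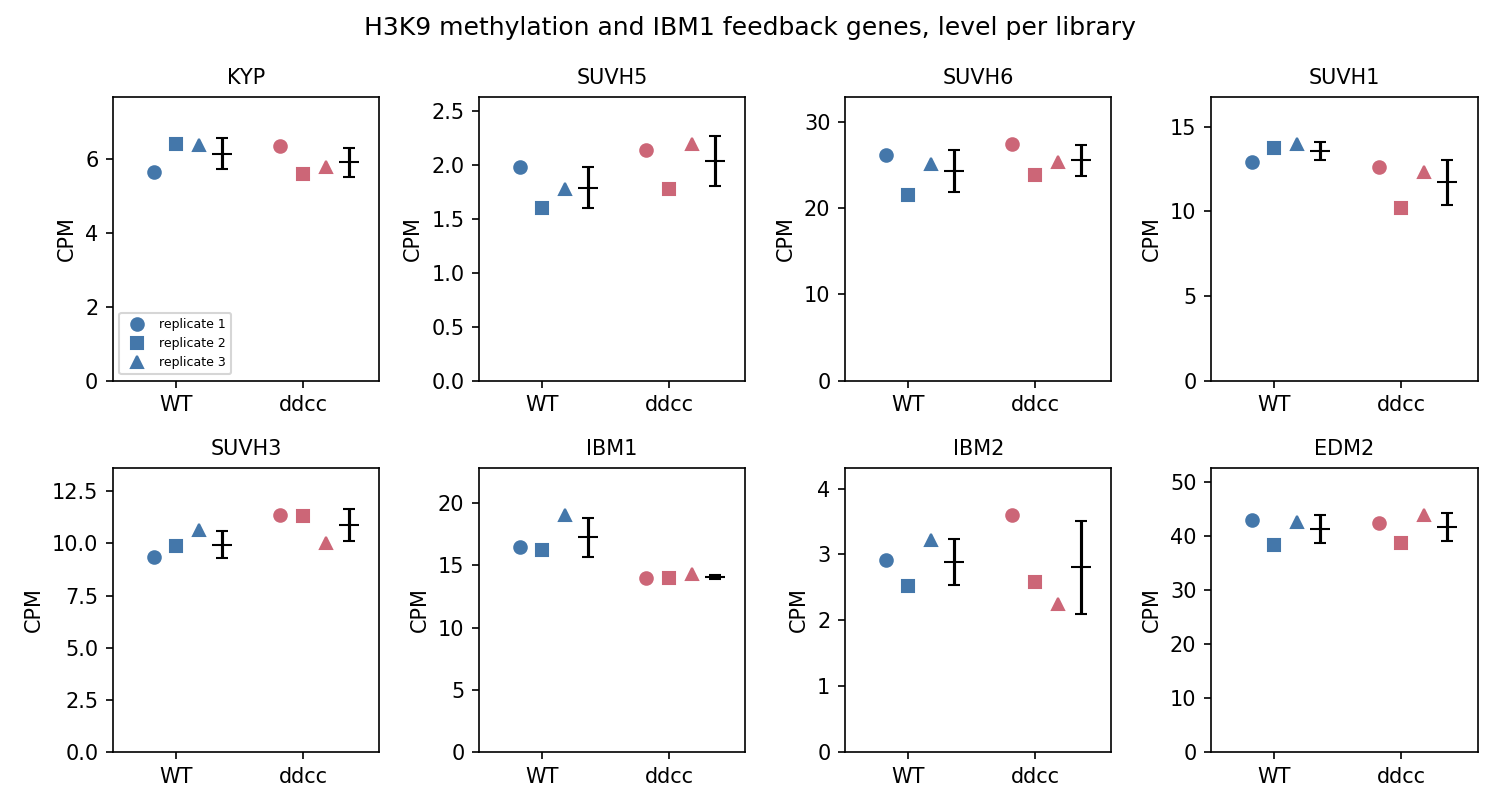
CPM of the 8 genes in each library, with marker shapes for replicates 1 to 3, colours for genotype and the mean ± SD (n = 3) in black; axes start at 0. The ddcc libraries lie below all wild-type libraries for IBM1 (at most 14.3 against at least 16.3 CPM) and for SUVH1, and overlap with them for the other 6 genes.

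The 3 H3K9 methyltransferases that feed CMT3 and CMT2 showed no called difference. KYP (chromosome 5, 4501362 to 4506250, plus strand), the main writer of H3K9 methylation in this loop, had 97, 104 and 97 counts in wild-type leaves against 122, 98 and 108 in the mutant. Its levels were 5.66, 6.41 and 6.37 CPM against 6.36, 5.60 and 5.78 CPM, and the genotypes overlapped. The log2 fold change was −0.05 (standard error 0.12, adjusted p 0.781 by edgeR), and its 95% interval of −19.9% to 16.0% bounds the change in level. SUVH6 (chromosome 2, 9662638 to 9667038, minus strand), a writer that acts partly redundantly with KYP, had 26.2, 21.6 and 25.2 CPM in wild-type leaves against 27.5, 23.9 and 25.4 CPM in the mutant. Replicate 2 was the lowest of both genotypes, and the log2 fold change was 0.07 (standard error 0.09, adjusted p 0.567 by edgeR, interval −7.84% to 20.2%). An antisense gene overlaps 40.7% of the SUVH6 exon bases, and the use of strand in counting is not given in the sources used here, so the SUVH6 level may include reads of that gene.

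SUVH5 (chromosome 2, 14822774 to 14826194, plus strand), the third writer, was the member with the fewest reads. It had 34, 26 and 27 counts in wild-type leaves against 41, 31 and 41 in the mutant, which gave 1.79 ± 0.191 and 2.03 ± 0.228 CPM (SD, n = 3 each). The genotypes overlapped. Its log2 fold change of 0.19 (standard error 0.20, adjusted p 0.536 by edgeR) came with a wide interval of −16.7% to 55.7%, and a change within that range could not be told from none at this depth.

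SUVH1 and SUVH3, the readers, did not pass the test either, and their point estimates had opposite signs. SUVH1 (chromosome 5, 1454131 to 1457141, minus strand) had 12.9, 13.7 and 14.0 CPM in wild-type leaves against 12.6, 10.2 and 12.4 CPM in the mutant. All ddcc libraries lay below the wild type, with replicate 2 the lowest and replicate 1 close to the wild-type range. The log2 fold change was −0.21 (standard error 0.10, adjusted p 0.144 by edgeR, interval −25.5% to 0.693%), and without ddcc replicate 2 it was −0.12 (adjusted p 0.382). SUVH3 (chromosome 1, 27491184 to 27494182, plus strand) had 9.33, 9.86 and 10.6 CPM in wild-type leaves against 11.4, 11.3 and 10.003 CPM in the mutant, with ddcc replicate 3 inside the wild-type range. Its log2 fold change was 0.13 (standard error 0.10, adjusted p 0.344 by edgeR, interval −5.60% to 27.4%). The ratio of SUVH1 to SUVH3 in RPKM, the CPM divided by the exon length in kilobases, looked at after the values were seen, was 1.12, 1.12 and 1.06 in wild type and 0.894, 0.724 and 0.994 in ddcc. With the longest transcript as length, an alternative added after the data were seen, the ratio was 1.149, 1.154 and 1.089 in wild type and 0.919, 0.745 and 1.02 in ddcc. Which of the pair was higher in ddcc replicate 3 therefore depended on the length. The ddcc ratios lay below the wild-type ratios. A change of length scales the ratio of every library alike, so it could not change this order and is no check of it. SUVH1 alone, like 43.0% of tested genes, did not overlap between genotypes either, so the ratio is not a separate result.

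IBM2 and EDM2, the factors that act on the IBM1 intron, showed no called difference. IBM2 (chromosome 5, 3662634 to 3668214, minus strand), a protein with a BAH domain also known as ASI1, had 50, 41 and 49 counts in wild-type leaves against 69, 45 and 42 in the mutant. The levels were 2.92, 2.53 and 3.22 CPM against 3.60, 2.57 and 2.25 CPM, so ddcc held both the highest and the lowest library. Its log2 fold change was −0.04 (standard error 0.21, adjusted p 0.916 by edgeR, interval −29.3% to 34.5%), and without ddcc replicate 1 it was −0.26 (adjusted p 0.409). EDM2 (chromosome 5, 22447937 to 22454805, minus strand), a PHD-finger protein named for its role in resistance to downy mildew, had 43.0, 38.3 and 42.6 CPM in wild-type leaves against 42.5, 38.8 and 43.9 CPM in the mutant. The 95% interval of EDM2 was −9.34% to 12.5%, around a log2 fold change of 0.01 (standard error 0.07, adjusted p 0.899 by edgeR).

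Levels per length put the members in an order that differed little between genotypes. In wild type EDM2 had 9.19 ± 0.581 RPKM and SUVH6 9.10 ± 0.909 RPKM (SD, n = 3 each), and their libraries overlapped. SUVH1 (4.50 ± 0.181 RPKM), SUVH3 (4.10 ± 0.272 RPKM) and IBM1 (3.70 ± 0.334 RPKM) followed, each overlapping with the next. KYP was next at 2.41 ± 0.166 RPKM, below all libraries of IBM1. IBM2 (1.05 ± 0.127 RPKM) and SUVH5 (0.535 ± 0.0572 RPKM) were lowest, and neither overlapped with its neighbour. The wild-type level of EDM2 per length was on average 17.2 times that of SUVH5, a ratio chosen after the values were seen. In ddcc the means of EDM2 and SUVH6 and those of SUVH1 and SUVH3 changed places, and the libraries of each pair overlapped there too. In ddcc IBM1 had 3.02 ± 0.0399 RPKM, with all libraries below those of SUVH1 (3.89 ± 0.444 RPKM). The place of IBM1 depends on the length used. With the longest transcript in place of all exon bases it had 4.81 RPKM in wild type and 3.92 RPKM in ddcc, and the ranks of 3 members changed.

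**Figure D3:**
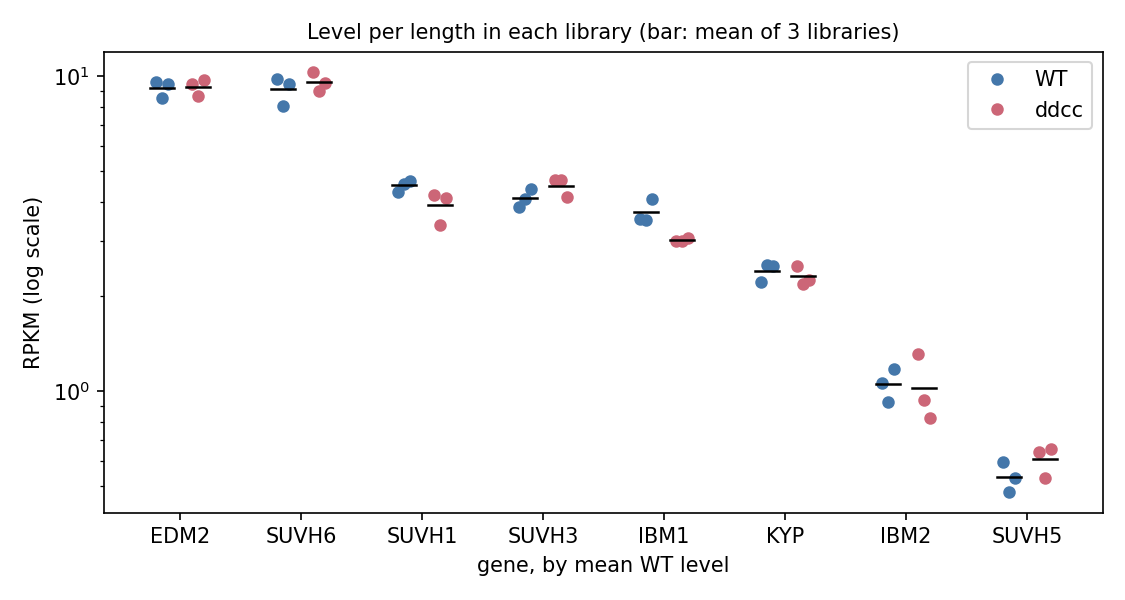
RPKM on a log scale for each gene and library, ordered by the mean wild-type level, with a bar at the mean of 3 libraries. EDM2 and SUVH6 are near 9 RPKM, SUVH5 is near 0.5 RPKM, and the 2 genotypes of IBM1 are apart.

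Among the 5 SUVH members SUVH6 made up the largest share of the summed RPKM, with a mean of 44.0% ± 3.11 for the wild type against 45.8% ± 0.408 for the mutant (SD, n = 3 each). KYP made up 11.7% ± 1.04 and 11.1% ± 0.111, and SUVH5 2.59% ± 0.235 and 2.91% ± 0.248. SUVH1 had 21.8% ± 1.24 in wild type and 18.6% ± 1.38 in ddcc, and SUVH3 had 19.9% ± 1.16 and 21.6% ± 1.90. The level of the demethylase against that of the 3 writers, as IBM1 RPKM divided by the sum of KYP, SUVH5 and SUVH6 and also chosen after the values were seen, was 0.280, 0.315 and 0.328 with wild-type leaves against 0.223, 0.256 and 0.247 with ddcc. The genotypes did not overlap in this ratio, whose divisor rests mostly on SUVH6 and therefore on its antisense overlap. IBM1 alone, like 43.0% of tested genes, did not overlap between genotypes either, so the ratio is not a separate result.

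Other loci with reported dependence on IBM2 or EDM2 were compared. PPD7 (AT3G05410, annotated as a photosystem II PsbP family protein), RPP7 (AT1G58602) and RPP4 (AT4G16860), both annotated as disease resistance proteins with leucine-rich repeats, made up the list. All 3 passed the test, 2 lower and 1 higher, against 27.4% of all tested genes. This list was written with earlier results of these data known, and the difference in shares was not tested. PPD7 had 18.3, 20.9 and 19.1 CPM in wild-type leaves against 9.64, 9.44 and 10.5 CPM in the mutant, and the genotypes were far apart. Its log2 fold change was −0.98 (standard error 0.09, adjusted p 1.94e-05 by edgeR). The PPD7 count sums its 3 annotated transcripts, 2 of which end inside its longest intron. Annotated antisense exons overlap 6.96% of the PPD7 exon bases, and the use of strand in counting is not given. RPP7, which confers resistance to downy mildew, had 101.5, 98.7 and 104 CPM in wild-type leaves against 59.6, 65.4 and 66.8 CPM in the mutant. Its log2 fold change was −0.67 (standard error 0.06, adjusted p 1.94e-05 by edgeR). Both calls held in all 15 alternatives, with log2 fold changes of −1.02 to −0.92 for PPD7 and −0.70 to −0.62 for RPP7.

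RPP4, a resistance gene in a cluster of close relatives, rose from 73.3 ± 5.98 to 86.8 ± 5.94 CPM (SD, n = 3 each), a log2 fold change of 0.24 (standard error 0.07, adjusted p 0.0280 by edgeR). The call was lost without wild-type replicate 2 or 3 or without ddcc replicate 1 or 3, with an adjusted p of up to 0.104. How reads shared by members of a cluster were assigned is not given in the sources used here, so the levels of RPP4 and RPP7 are uncertain.

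PPD7 and RPP7 have, like IBM1, a long intron, and these introns were looked at after the expression values were known. The longest intron of PPD7 (chromosome 3, 1555396 to 1561143) has 5748 bases and that of RPP7 (chromosome 1, 21746500 to 21753883) 7384 bases, and 4.11% of genes with introns have one of at least 1000 bases. RPP4 also has a long intron of 3158 bases. CHG cytosines were dense in the introns of PPD7 and RPP7, with 69.2 and 75.4 per kb, above 92.5% and 96.1% of the introns compared, and sparse in that of RPP4 with 13.6 per kb. Like IBM1, PPD7 has annotated transcripts that end inside the intron, 2 of 3. Windows of 200 bases chosen and marked as for IBM1 are shown for comparison with it, from chr3:1560589-1560788 and chr1:21748020-21748219, both on the plus strand. Exons of any annotated gene leave 592 bases of the PPD7 intron and 2812 of the RPP7 intron free, the windows come from these, and the densities above cover the whole introns, exons within them included.
PPD7 intron 2: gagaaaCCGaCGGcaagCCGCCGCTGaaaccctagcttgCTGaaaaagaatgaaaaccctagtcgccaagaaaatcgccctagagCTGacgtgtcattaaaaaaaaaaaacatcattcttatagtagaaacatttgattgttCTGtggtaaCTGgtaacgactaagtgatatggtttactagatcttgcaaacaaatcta
RPP7 intron 1: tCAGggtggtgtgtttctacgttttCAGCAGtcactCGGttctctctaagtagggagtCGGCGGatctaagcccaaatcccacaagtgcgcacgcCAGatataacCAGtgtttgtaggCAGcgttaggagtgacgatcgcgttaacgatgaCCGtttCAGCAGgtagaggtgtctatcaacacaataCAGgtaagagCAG
They hold 9 and 14 marked triplets. SUVH6 was the other member with an intron of at least 1000 bases (1528 bases, 60.9 CHG cytosines per kb), and its level was not called different. That intron is annotated in 1 of 2 SUVH6 transcripts, before the last exon, from 2848 to 4376 bases after the gene start. The other SUVH6 transcript ends just inside it, at 2874 bases. Among the other uncalled members, the longest introns of SUVH1 (84 bases), EDM2 and KYP held 95.2, 62.2 and 60.2 CHG cytosines per kb. IBM1 had 51.2 per kb, and IBM2, SUVH3 and SUVH5 had 51.1, 32.3 and 25.8 per kb. Whether intron length, CHG density or annotated transcript ends go with the change in level was not tested.

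The remaining pathway genes came from lists grouped by role and written with earlier results of these data known. Over all lists 28 of 32 genes were tested, 3 were higher and 3 lower (21.4%, against 27.4% of tested genes), and the median log2 fold change was −0.0041. Of the other SUVH genes SUVH2 and SUVH9, which help to place RNA polymerase V, were tested and neither was called, while SUVH7 and SUVH8 had 0 counts in all libraries. None of the 4 tested SUVR genes, relatives of the SUVH methyltransferases, was called, with log2 fold changes of −0.19 to −0.05. None of the 4 other IBM2 and EDM2 partners was called, and the largest change in size was 0.18 for AIPP1 (AT1G05970, edgeR adjusted p 0.255). None of 6 loci reported to depend on IBM1 was called, among them BNS, the gene that gave IBM1 its name, with 1.98 ± 0.327 CPM in wild-type leaves against 1.85 ± 0.406 CPM in the mutant.

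A relative of IBM1 was higher in ddcc. Of 5 other JmjC genes of its kind, JMJ29 (AT1G62310) had 46.5, 46.1 and 49.8 CPM in wild-type leaves against 70.1, 62.4 and 69.2 CPM in the mutant, with no overlap of the genotypes. It rose by 0.50 on the log2 scale (standard error 0.06, adjusted p 0.000235 by edgeR), and the call held in all 15 alternatives. The other 4, JMJ24, JMJ26, JMJ27 and JMJ28, had log2 fold changes of 0.05 to 0.15 and were not called. Of the 2 DnaJ-domain proteins known to bind SUVH1 and SUVH3, DNAJ1 (AT5G64360, listed as EIP9 in RefSeq) rose from 25.1 ± 0.769 to 30.7 ± 1.23 CPM (log2 fold change 0.29 with a standard error of 0.06, adjusted p 0.00632 by edgeR), also in all 15 alternatives. DNAJ2 (AT5G18750) was not called (log2 fold change 0.09, edgeR adjusted p 0.763).

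LDL2 (AT3G13682), a histone demethylase homologue whose loss is known to suppress the defects of ibm1 mutants, had 54, 38 and 52 counts in wild-type leaves against 29, 27 and 44 in the mutant, so the genotypes overlapped in CPM. It fell from 2.97 ± 0.560 to 1.80 ± 0.477 CPM (log2 fold change −0.71 with a standard error of 0.24, adjusted p 0.0437 by edgeR). The call was lost in 6 of 14 alternatives, DESeq2 among them (adjusted p 0.126). AGDP1 (AT1G09320), an agenet-domain reader of H3K9 methylation, had 6.47, 7.27 and 6.70 CPM in wild-type leaves against 9.07, 8.23 and 8.08 CPM in the mutant, all above the wild type, with a log2 fold change of 0.31 that did not pass (edgeR adjusted p 0.0541).

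**Figure D4:**
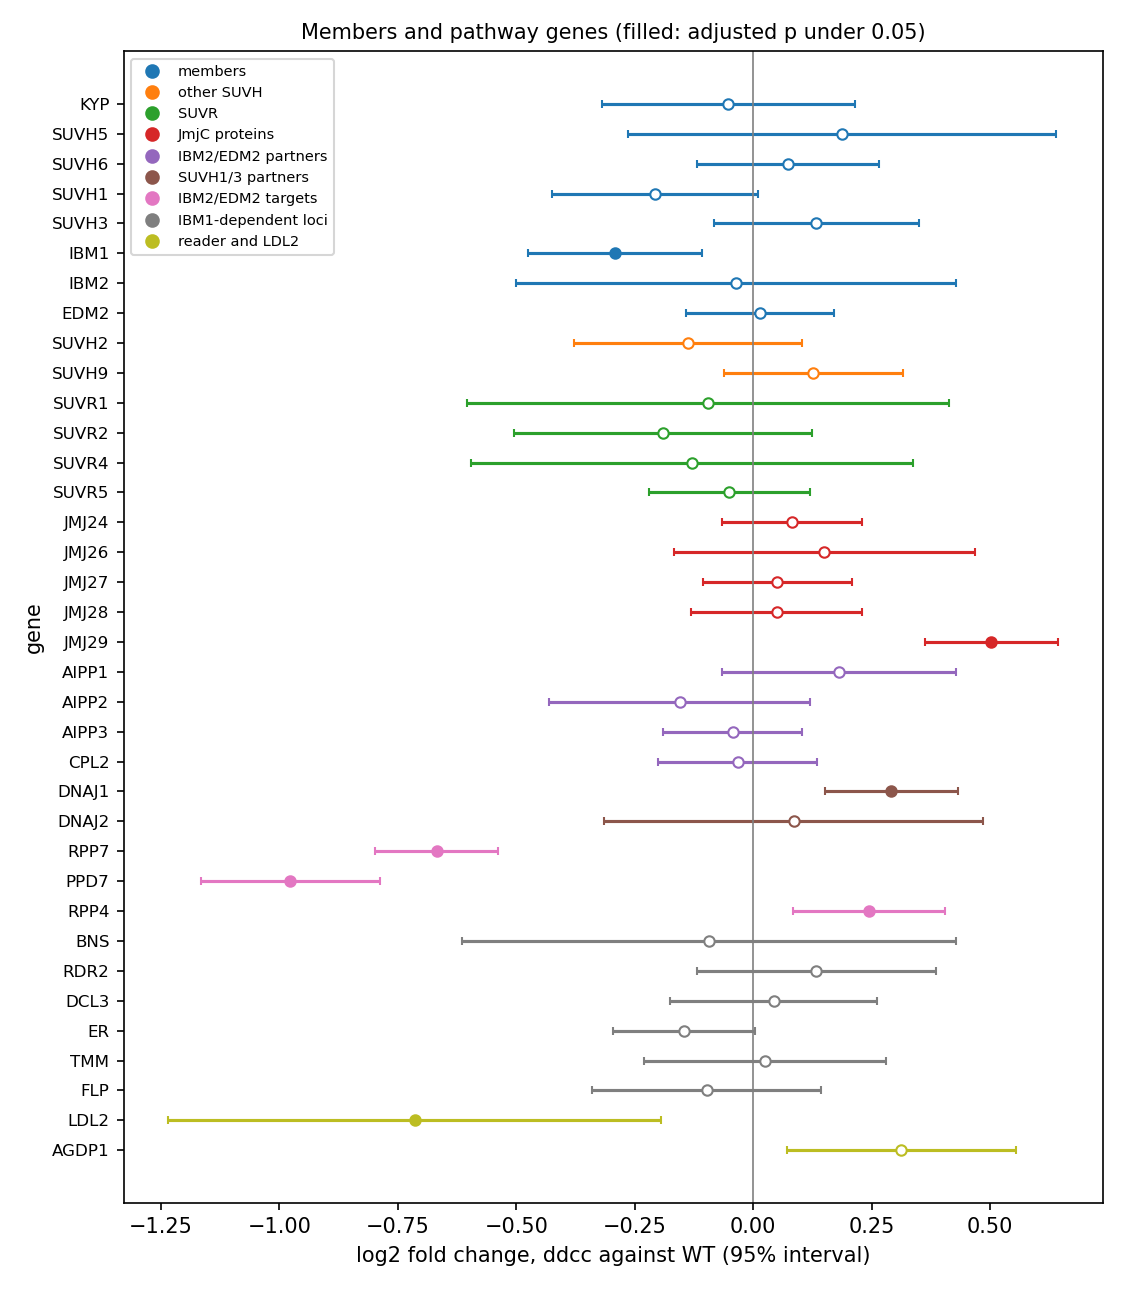
Log2 fold change of ddcc against wild type with its 95% interval for the 8 members and the 28 tested pathway genes, coloured by list, with filled points for an adjusted p under 0.05. IBM1 is the filled member, and PPD7 and RPP7 lie farthest from 0 among the genes whose calls held in all alternatives.

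The genes with the expression pattern most like that of IBM1 were sought among 15020 other tested genes with a mean of at least 50 counts, by the Euclidean distance of log2 CPM, centred on the mean of each gene, over the 6 libraries. The nearest were AT3G20270, annotated as a lipid-binding protein (distance 0.0652), QS (AT5G50210), a quinolinate synthase (0.0692), and NRAMP1 (AT1G80830), a metal ion transporter (0.0757). They had log2 fold changes of −0.32, −0.30 and −0.31. The nearest to KYP were AT5G59470 (0.0265), NF-YA4 (AT2G34720, 0.0419) and AT1G10180 (0.0565), with log2 fold changes of −0.04, −0.08 and −0.04. With 6 libraries, distances this small mean only that the profiles lie close. The genes were chosen by closeness over these same libraries, so fold changes near those of IBM1 and KYP follow from that choice.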

How the data were processed

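The authors deposited raw read counts per gene and transposable element (TE) for 3 wild-type and 3 ddcc leaf libraries, without normalization. The submitters' processing notes list Trim Galore 0.6.0, cutadapt 1.15, STAR 2.7.0f and the build TAIR10. How reads were counted, with or without strand, and what was done with multiply mapped reads are not given in the sources used here. Genotype and replicate number came from the library titles. Positions, exons and sequence came from the RefSeq annotation of TAIR10.1, matched by locus for 31114 of 31335 gene entries and all 8 members. A table of batches was not used: it lists DNA methyltransferase mutants that are not among these samples and no ddcc library, its file name was read as pointing to moss, and its wild-type names are also the titles of the wild-type libraries here. The number of unmatched columns was 0.

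Genes and TEs were tested in 1 fit of edgeR 4.0.16 (R 4.3.3): filterByExpr with a minimum count of 10, TMM scaling, quasi-likelihood F test with genotype as the only term, and Benjamini-Hochberg adjustment over 18498 features, with an adjusted p under 0.05 as the threshold. The biological coefficient of variation was 7.61%. SE was taken as |log2 fold change| over the root of the F statistic, and 95% intervals use its t distribution. CPM uses TMM-scaled totals, in which 3 counts equal 0.156 to 0.197 CPM, and RPKM divides it by the length of all annotated exon bases. Precision is limited by depth and by the spread between the 3 libraries of each genotype. The members had 26 to 821 counts per library. Replicates differed by more than sampling noise (chi-square per degree of freedom 3.32 to 7.65). Alternatives were other scalings, filters and thresholds, DESeq2 1.42.0, robust dispersions, genes only, a replicate block and leaving out each library. Named genes were the members, called genes of the lists, the mutated genes and the 3 nearest profiles of IBM1 and KYP, and other list genes were named to describe their lists. The members and lists were chosen with earlier results of these data known.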

Additional observations from a re-analysis of the deposited data

How the results depend on the processing

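The count of members called lower, 1 in the main setting, was 0 with DESeq2 (1 member had an unadjusted p under 0.05), 0 at an adjusted p under 0.01 in edgeR (1 member had an unadjusted p under 0.05) and 0 to 1 when single libraries were left out, and 0 members were called higher in any setting. At an adjusted p under 0.01 the features called fell from 2873 to 1795 (higher) and from 2341 to 1195 (lower), because the threshold is stricter. With the longest transcript as length 3 members changed rank in wild-type RPKM, and 2 of 16 levels, both of IBM1, moved by more than 1 SD, and with library totals 0 of 16 did. IBM1 was called in 11 of 15 alternatives. The sign of the log2 fold change turned in 1 alternative for SUVH6, 3 for IBM2 and 2 for EDM2, none of them called. With a mean of at least 50 counts the members SUVH5 and IBM2 were left out. With a replicate block 1 member was called lower, IBM1 (log2 fold change −0.29, edgeR adjusted p 0.0304), and 2743 features were higher and 2178 lower. The labels state no pairing of libraries by replicate number. Same-numbered libraries had deviations correlated at −0.104, −0.0775 and 0.0262 over tested features. No wild-type library correlated best with the ddcc library of its own number. These deviations are centred on the mean of 3 libraries per genotype, so such correlations cannot exclude a pairing. Scaling moved the median log2 fold change of tested genes by less than 0.1. Depth limits SUVH5 and IBM2 most, whose intervals are the widest of the members.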
